A study of Arabidopsis thaliana with 8 samples.

Results

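The HAIKU pathway and the ZHOUPI branch of the seed endosperm were followed here through 8 genes, listed by their gene codes, with earlier results of these data known. The HAIKU genes were *IKU1*, *IKU2*, *MINI3*, *SHB1* and *CKX2*, and the ZHOUPI genes were *ZHOUPI*, *ICE1* and *ALE1*. All 8 were found among the 38209 genes of each of 5 tables, where *MINI3* is listed as *WRKY10* and *ZHOUPI* as *RGE1*. The tables come from mRNA sequencing of *Arabidopsis thaliana* seeds of 4 genotypes with 2 biological replicates each, 8 samples in all, each from the seeds of at least 30 siliques. The tissue label places the harvest at 4 days after pollination and the extraction protocol at 3. The genotypes were the wild type Col-0 and, all in the Col-0 background, the T-DNA line *pkr2-2* (SALK_115303), the *pkl-1* mutant, and the double mutant *pkr2-2;pkl-10*, whose *pkl-10* allele is a GABI T-DNA line. The double mutant therefore carries another *pkl* allele than the single mutant, and an effect of the allele cannot be told apart from that of the *pkr2-2* background where the double mutant is set beside *pkl-1*. *PKL* and *PKR2* encode CHD3 chromatin remodelers, and the comparisons ask what the loss of one or both does to the seed transcriptome.

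In Arabidopsis the endosperm first grows as a syncytium of many nuclei and then forms cell walls, and the timing of that step bears on seed size. The HAIKU pathway keeps the endosperm growing: mutants of *IKU1*, *IKU2* and *MINI3* make small seeds. The ZHOUPI protein works with ICE1 in the endosperm, where it drives the later breakdown of that tissue around the growing embryo and the formation of the embryo's cuticle, partly through *ALE1*.

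Values are FPKM, which count sequenced fragments per unit of transcript length and of library depth, and the authors pooled the replicates of a genotype into 1 value per table. No value therefore carries an error between replicates, no test between genotypes was run from these single values, and every difference below is a description. Levels were set side by side only inside one table, as each was scaled on its own: the Col-0 values of the *pkl-1* and double-mutant tables were 1.10 and 1.17 times those of the *pkr2-2* table. The fragments behind a value were estimated from the smallest steps between low FPKM values. The intervals of a fold change are 95% intervals for counting error, from the exact binomial (Clopper-Pearson) interval of these estimated fragments. Intervals of a difference between fold changes are an approximation built from these. None of them covers variation between plants. A gene was called when it had at least 1 FPKM in one of the genotypes compared and its log2 fold change lay beyond 2, and a second limit of 1 was read for lower values.

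The targeted genes were examined first. *PKR2* stood at 3.06 FPKM in the wild type and 0.168 in *pkr2-2*, and at 3.57 in the wild type and 0.120 in the double mutant. *PKL* stood at 13.6 FPKM in the wild type and 2.44 in the double mutant, while in *pkl-1* it was at 15.2 beside 12.8 in Col-0, so the transcript level does not check the *pkl-1* label.

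The 250 bases before the annotated start are shown for the 4 genes whose levels were lowest relative to Col-0 in the double mutant among those above 1 FPKM, chosen for display with these values known. They were read from TAIR10.1, the build of the files, 5′ to 3′ on the strand of each gene. Capitals mark matches, on either strand, to the W-box cores TTGACC and TTGACT, to the E-box CANNTG, to the telobox AAACCCTA or to GAGAGA.
CKX2 (chr2:8447356-8447605, minus strand): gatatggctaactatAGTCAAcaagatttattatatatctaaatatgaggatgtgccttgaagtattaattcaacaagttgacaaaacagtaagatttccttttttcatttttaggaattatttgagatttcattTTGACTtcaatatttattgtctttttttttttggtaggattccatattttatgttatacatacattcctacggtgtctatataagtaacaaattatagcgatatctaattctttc
ALE1 (chr1:23055673-23055922, minus strand): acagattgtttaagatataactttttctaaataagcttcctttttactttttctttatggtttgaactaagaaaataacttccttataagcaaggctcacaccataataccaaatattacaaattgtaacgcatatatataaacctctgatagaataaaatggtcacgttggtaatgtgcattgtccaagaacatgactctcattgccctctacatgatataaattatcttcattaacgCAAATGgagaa
MINI3 (chr1:20776295-20776544, minus strand): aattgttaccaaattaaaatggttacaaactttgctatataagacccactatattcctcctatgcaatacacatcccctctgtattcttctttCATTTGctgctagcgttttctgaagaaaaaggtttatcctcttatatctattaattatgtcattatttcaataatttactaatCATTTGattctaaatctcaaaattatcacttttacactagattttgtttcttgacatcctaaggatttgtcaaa
ZHOUPI (chr1:18424328-18424577, plus strand): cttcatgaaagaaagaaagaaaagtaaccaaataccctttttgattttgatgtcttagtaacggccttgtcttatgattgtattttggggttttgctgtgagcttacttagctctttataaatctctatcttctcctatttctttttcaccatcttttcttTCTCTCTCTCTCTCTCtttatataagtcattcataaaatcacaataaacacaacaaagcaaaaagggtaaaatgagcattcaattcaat

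*CKX2* holds 2 matches to TTGACT, the core bound by WRKY proteins such as MINI3, and *SHB1* is the other of the 8 windows with that word. TTGACT stands in 19.1% of the windows of all 27443 protein-coding nuclear genes and TTGACC, which none of the 8 windows holds, in 12.2%. The E-box CANNTG, the word read by bHLH proteins such as ZHOUPI and ICE1, stands in 55.3% of all windows and in 3 of the 8, those of *IKU1*, *MINI3* and *ALE1*. GAGAGA was found in *ZHOUPI* alone of the 8, as a single run of overlapping matches, and in 20.6% of all windows, and the telobox in none of the 8 and in 4.49% of all. These matches are words in a sequence and not sites of binding.

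*CKX2* (AT2G19500) was the most abundant of the 8 genes in Col-0, *pkr2-2* and *pkl-1*, though below *ICE1* in the double mutant, and among the most reduced. It lies on chromosome 2 from 8444204 to 8447355 on the minus strand, has 5 exons and encodes a cytokinin oxidase, an enzyme that breaks down cytokinin, and it acts downstream of MINI3. It stood at 219 FPKM in the wild type and 139 in *pkr2-2*, or -0.66 on the log2 scale (counting interval -0.70 to -0.62). It stood at 240 in the wild type and 54.1 in *pkl-1*, a change of -2.15 (-2.20 to -2.09). In the double mutant it was at 32.1 beside 255 in Col-0, 7.93-fold lower, a change of -2.99 (-3.05 to -2.92). As a share of the Col-0 value of the same table, *CKX2* was thus at 63.4% (*pkr2-2*), 22.6% (*pkl-1*) and 12.6% (double mutant). About 11476 to 13333 fragments in the wild type and 2448 to 2651 in the double mutant lay behind the last comparison. The gene overlaps AT2G00640, a non-coding RNA gene on the opposite strand, by 666 bases and *RECA2* by 30, and the counting is not stated to use strand. AT2G00640 was at 0.647 FPKM and *RECA2* at 8.19 in Col-0 of that table, far below the 255 of *CKX2*.

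*MINI3* (AT1G55600), a WRKY transcription factor gene on chromosome 1 from 20774046 to 20776294 on the minus strand with 5 exons, was nearly level in *pkr2-2* and lower in the other mutants. It stood at 5.52 FPKM in the wild type and 5.45 in *pkr2-2* (log2 fold change -0.02, counting interval -0.28 to 0.24). It was at 6.05 in the wild type and 2.43 in *pkl-1* (-1.31, -1.64 to -0.99), and at 6.43 in the wild type and 1.72 in the double mutant (-1.91, -2.24 to -1.58). The double mutant value rested on 111 to 120 fragments.

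The other HAIKU genes were either little changed or barely detected. *IKU1* (AT2G35230), a VQ-motif protein gene on chromosome 2 from 14842291 to 14844465 on the plus strand with 3 annotated transcripts, was at 4.67 FPKM in the wild type and 4.71 in *pkr2-2*, at 5.11 and 6.49 in the table with *pkl-1*, and at 5.44 and 6.92 in that with the double mutant. Its log2 fold changes were 0.01 (-0.25 to 0.28), 0.34 (0.11 to 0.59) and 0.35 (0.13 to 0.58), so it was the only one of the 6 genes above 1 FPKM that was higher than Col-0 in *pkl-1* and the double mutant. *IKU2* (AT3G19700), a leucine-rich repeat receptor kinase gene on chromosome 3 from 6843662 to 6847275 on the plus strand with 2 exons, was below 1 FPKM everywhere. It was at 0.244 FPKM in the wild type and 0.112 in *pkr2-2*, at 0.268 and 0.0446 with *pkl-1*, and at 0.285 and 0.00529 with the double mutant. These values stand for 29 to 34 fragments in Col-0, 14 in *pkr2-2*, 6 to 7 in *pkl-1* and just 1 for the double mutant, and the log2 fold changes of -1.13 (-2.16 to -0.16), -2.59 (-4.15 to -1.29) and -5.75 (-11.10 to -3.16) have intervals to match. *IKU2* overlaps *BCAT4* on the opposite strand by 307 bases at its 3′ end, and *BCAT4* was at 0.492 FPKM in the wild type and 2.59 in *pkr2-2*. *SHB1* (AT4G25350), whose SPX-domain protein is known to act on *MINI3* and *IKU2*, lies on chromosome 4 from 12962965 to 12966629 on the minus strand and was listed at 0 in the wild type and *pkr2-2*, at 0.0238 FPKM in *pkl-1* and at 0.0281 in the double mutant. That is about 3 and 4 fragments, against a limit of 0.0363 FPKM that 0 fragments allow in Col-0 of the last table, so no difference was detectable at this depth.

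**Figure D1:**
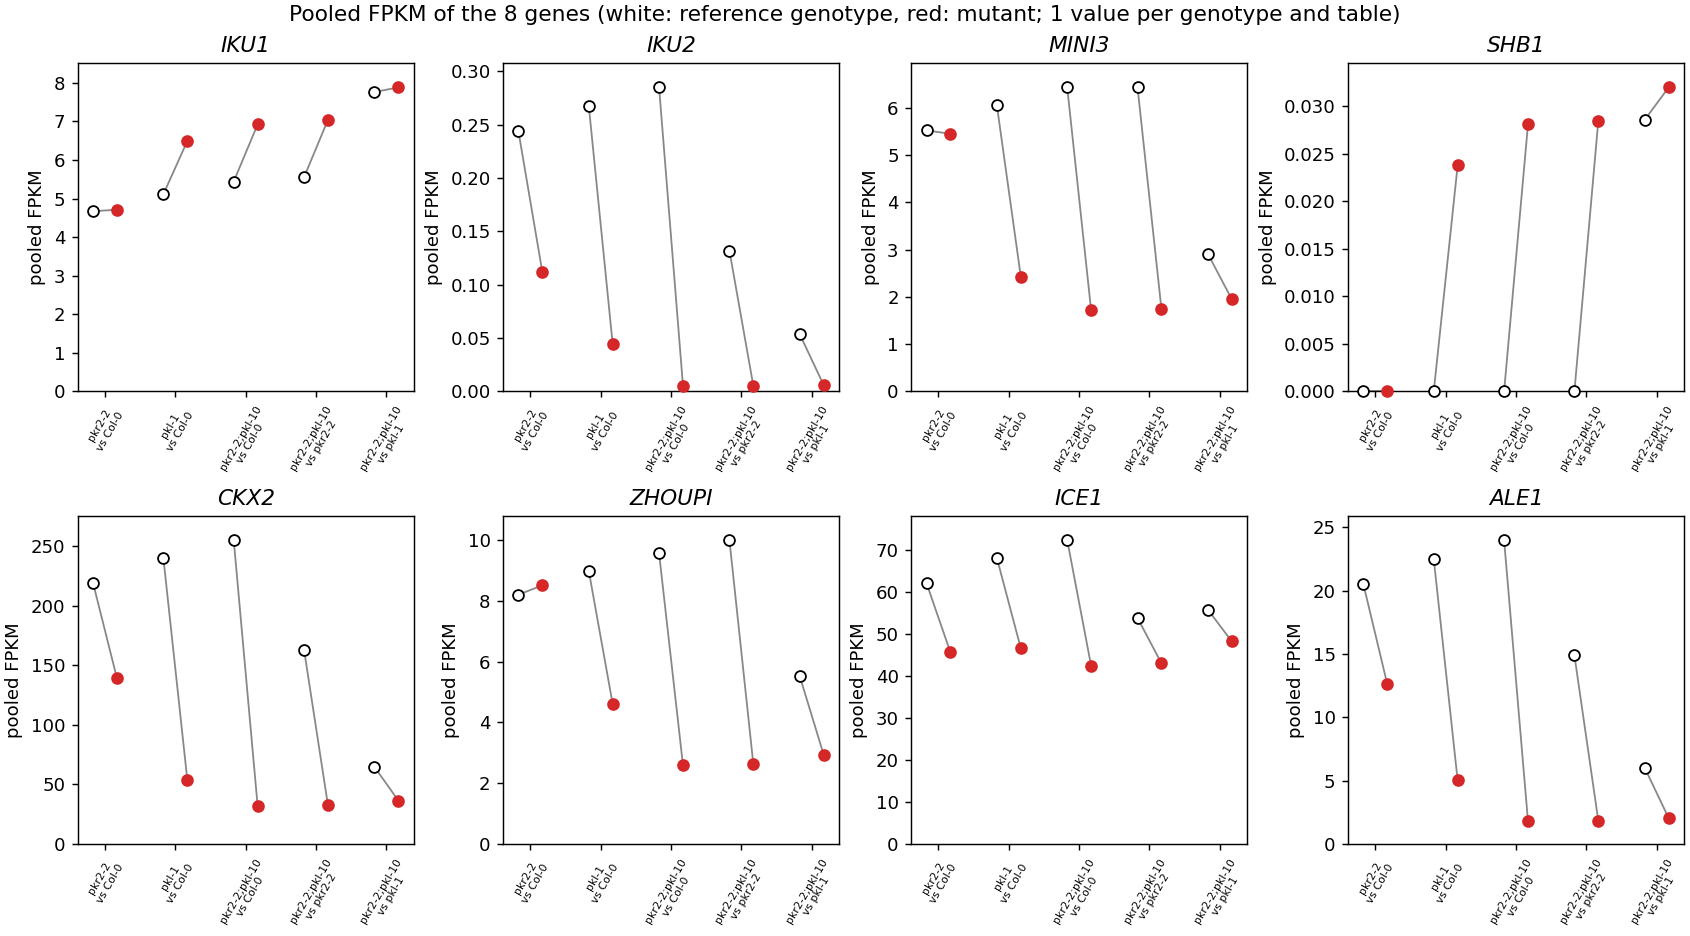
Pooled FPKM of the 8 genes (vertical axis, linear from 0, a scale of its own per gene) in the 5 tables (horizontal axis), with the reference genotype in white and the mutant in red; there is 1 value per genotype and table and no error bar can be drawn. *CKX2* runs from 255 to 32.1 FPKM and *ALE1* from 24.0 to 1.80 between Col-0 and the double mutant, while *IKU1* runs from 5.44 to 6.92.

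In the ZHOUPI branch, *ALE1* (AT1G62340) was reduced most. It encodes a subtilisin-like protease needed for the embryo cuticle and lies on chromosome 1 from 23051002 to 23055672 on the minus strand, with 10 exons. It was at 20.5 FPKM in the wild type and 12.6 in *pkr2-2* (log2 fold change -0.70, counting interval -0.81 to -0.59), and at 22.5 in the wild type and 5.02 in *pkl-1* (-2.17, -2.31 to -2.02). In the double mutant it was at 1.80 beside 24.0 in Col-0, 13.3-fold lower (-3.73, -3.93 to -3.54), or 7.52% of Col-0. The value in the double mutant rested on 234 to 253 fragments.

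*ZHOUPI* (AT1G49770), the bHLH gene of the branch, on chromosome 1 from 18424578 to 18426782 on the plus strand with 3 exons, was at 8.20 FPKM in the wild type and 8.51 in *pkr2-2* (0.05, -0.19 to 0.30). It was at 8.99 in the wild type and 4.61 in *pkl-1* (-0.96, -1.25 to -0.68) and at 9.56 in the wild type and 2.59 in the double mutant (-1.89, -2.20 to -1.58). The counting interval in *pkr2-2* held 0 and those in the other mutants did not, as for *MINI3*. *ICE1* (AT3G26744), the gene of its bHLH partner, on chromosome 3 from 9832667 to 9835279 on the minus strand with 5 annotated transcripts, differed less: it was at 62.2 FPKM in the wild type and 45.7 in *pkr2-2* (-0.44), at 68.2 and 46.7 with *pkl-1* (-0.55), and at 72.5 and 42.5 with the double mutant (-0.77, -0.84 to -0.71). ICE1 also has roles outside the seed, in cold response and stomata.

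**Figure D2:**
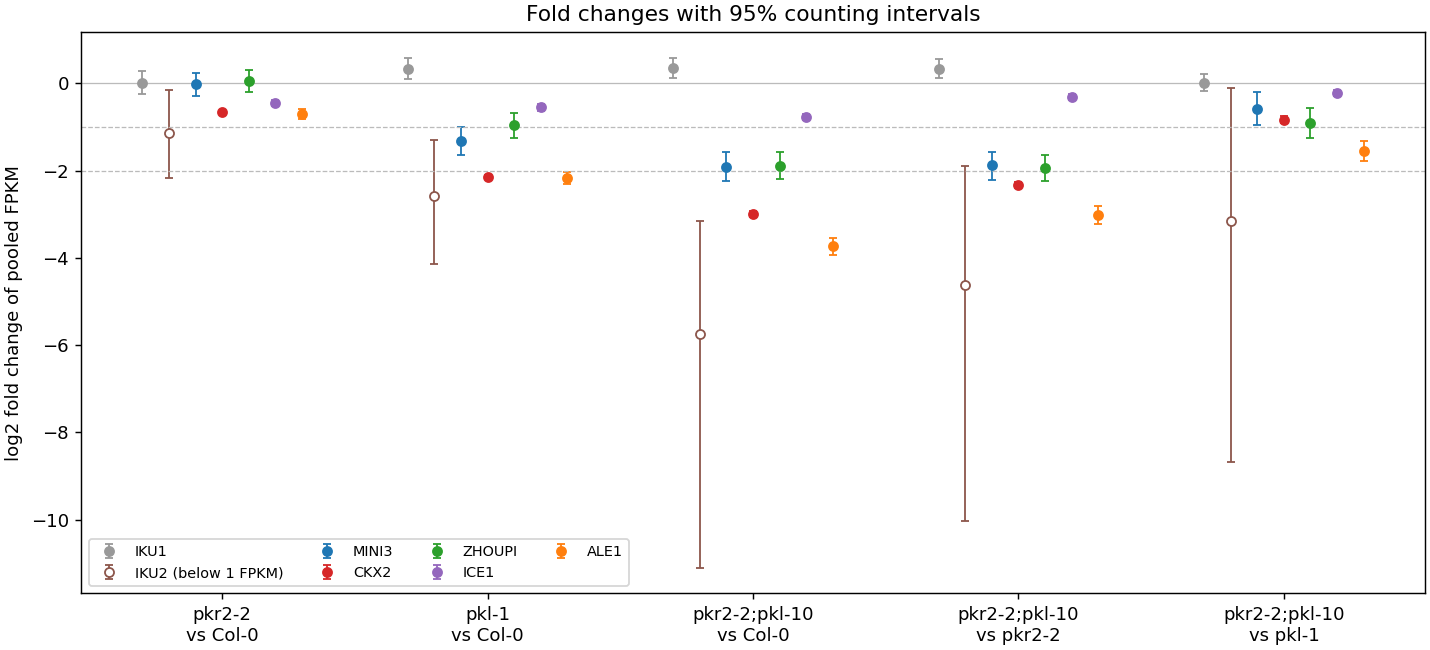
Log2 fold change of pooled FPKM, mutant over reference (vertical axis), in the 5 tables (horizontal axis) for 7 genes, with bars for the 95% counting interval; dashed lines mark -1 and -2. *SHB1* is left out for want of fragments, and *IKU2*, drawn as open circles, is below 1 FPKM and has bars down to -11.10.

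Against all genes of a table, 5 of the 6 members with at least 1 FPKM were lower than the reference where *PKL* was lost, and *IKU1* was higher. Of all genes with at least 1 FPKM, 51.1% were lower in *pkl-1* than in Col-0. The share was 47.9% for the double mutant against Col-0 and 49.1% for the double mutant against *pkr2-2*. The same 5 of 6 were also lower in the double mutant than in *pkl-1*, beside 43.4% of all genes. The median there was -0.70 for the members and 0.05 for all genes. With *PKR2* alone lost, in *pkr2-2* against Col-0, 4 of 6 were lower, beside 47.7% of all genes. In *pkr2-2* against Col-0, 0 of the 6 members with at least 1 FPKM were beyond 2, where 3.33% of 18124 genes were, and 0 were lower by more than 1, where 3.63% were. In *pkl-1* against Col-0, 2 of 6 were beyond 2 (*CKX2* and *ALE1*), where 6.47% of 18645 genes were, and 3 of 6 were lower by more than 1, where 8.76% were. Between the double mutant and Col-0, 2 of 6 were beyond 2 (again *CKX2* and *ALE1*), where 10.9% of 19141 genes were, and 4 of 6 were lower by more than 1, where 11.7% were. The median log2 fold change of the 6 members was -0.23, -1.14 and -1.90 in these comparisons, beside 0.02, -0.02 and 0.04 over all genes. These comparisons share the Col-0 libraries. *IKU2* and *SHB1* did not reach 1 FPKM in any genotype and are not in these counts.

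The double mutant was also set against each single mutant, which asks what the further loss of one remodeler does. Against *pkr2-2*, *ALE1* was at 1.83 FPKM beside 14.9 (-3.02, -3.23 to -2.82), *CKX2* at 32.6 beside 163 (-2.32, -2.39 to -2.26), *ZHOUPI* at 2.63, or 26.2% of its *pkr2-2* level (-1.93) and *MINI3* at 1.74 beside 6.43 (-1.88). Here 2 of 6 members were beyond 2, where 7.74% of 19094 genes were, and 4 of 6 were lower by more than 1, where 9.98% were. Against *pkl-1*, *ALE1* was at 2.05 FPKM beside 6.01 (-1.55, -1.78 to -1.33), *ZHOUPI* at 2.94 beside 5.52 (-0.91), *CKX2* at 36.5 beside 64.8 (-0.83) and *MINI3* at 1.95 beside 2.91 (-0.58, -0.96 to -0.19). Against *pkl-1*, 0 of 6 were beyond 2, where 2.76% of 19040 genes were, and 1 of 6, *ALE1*, was lower by more than 1, where 3.47% were. *ICE1* differed by -0.32 and -0.21 in these tables and *IKU1* by 0.34 and 0.02.

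**Figure D3:**
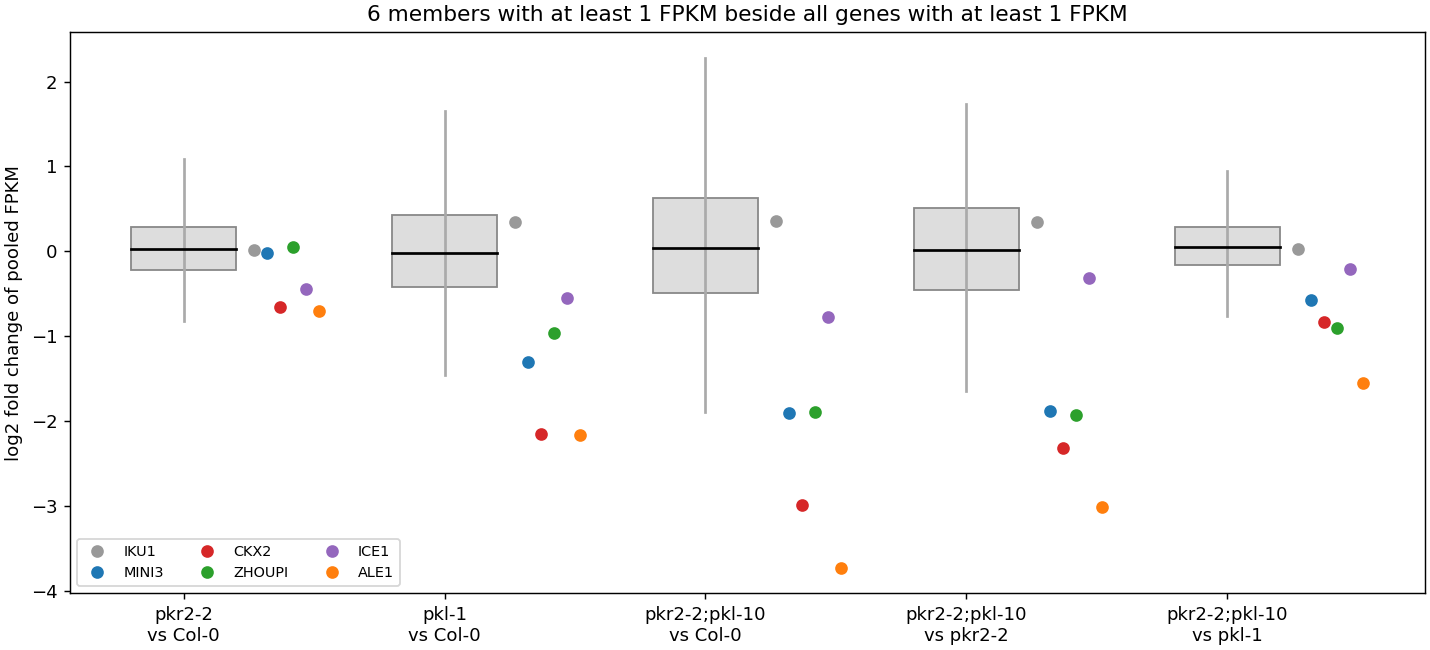
Log2 fold change of pooled FPKM (vertical axis) in the 5 tables (horizontal axis) for the 6 members with at least 1 FPKM (coloured points) beside all genes with at least 1 FPKM (box, from the 25th to the 75th percentile; black line, median; grey line, 5th to 95th percentile). Between the double mutant and Col-0, *ALE1* at -3.73 and *CKX2* at -2.99 lie below the 5th percentile of -1.90, and *IKU1* at 0.35 lies within the box. *MINI3* at -1.91 and *ZHOUPI* at -1.89 lie almost on that percentile, just below and just above it.

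The loss of *PKL* could be read in both backgrounds, in *pkl-1* against Col-0 and between the double mutant and *pkr2-2*, which share no library. The interval of a difference was set evenly around it, with the root of the summed squares of both half-widths. The decrease was larger in the *pkr2-2* background for *ZHOUPI*, by a difference of -0.97 on the log2 scale (counting interval -1.39 to -0.55), for *ALE1* by -0.86 (-1.11 to -0.61), for *MINI3* by -0.57 (-1.03 to -0.11) and for *CKX2* by -0.18 (-0.26 to -0.09). It was smaller for *ICE1*, by 0.23 (0.13 to 0.32), and for *IKU1* the interval of the difference ran from -0.33 to 0.32. Over all 17994 genes above 1 FPKM in both tables, the same difference lay between -1.01 and 0.85 for the genes from the 5th to the 95th percentile, so all 6 members lay within that range. The loss of *PKR2*, read in the wild type and in the *pkl* background, gives nearly the same differences by construction, with -0.96 for *ZHOUPI* and -0.85 for *ALE1*. In both readings the alleles *pkl-1* and *pkl-10* differ, which cannot be told apart from the background.

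Genes of the tissues of the seed moved beside the members. All 12 endosperm marker genes reached 1 FPKM in the table of the double mutant and Col-0, and 10 were lower in the double mutant, where 47.9% of all genes were, and 5 were lower by more than 1, where 11.7% were, namely *HDG3* (26.3 to 2.47 FPKM, -3.41), *PHE2* (-1.32), *FIS2* (-1.27), *FWA* (-1.23) and *PHE1* (-1.17), while *AGL62* (1.92) and *MEA* (1.24) were higher. The summed level of the 12 was 205 FPKM in the wild type and 160 in *pkr2-2*, 225 and 138 with *pkl-1*, and 239 and 124 with the double mutant. Of 13 embryo markers, 8 of 12 with at least 1 FPKM were lower by more than 1 in the double mutant, again beside 11.7% of all genes, with sums of 211 and 91.4 FPKM. Most of the fall in the sum came from *LEC1*, a master regulator of embryo development, which went from 99.9 to 5.45 FPKM. Lower too were *DRNL* (8.59 to 0.173 FPKM, -5.63), *CUC2* (-3.09), *LEC2* (-2.38), *CUC1* (-2.20) and *WOX8* (-2.10). *STM* (3.13 to 10.4 FPKM, 1.73) and *WOX9* (0.82) were higher. The median of the 12 embryo markers was -1.95, beside -0.74 for the endosperm markers. The 11 seed coat markers had sums of 1560 and 1890 FPKM in that table, with *BAN* (734 to 856) and *STK* (469 to 558) the most abundant. Of the 11, 9 were higher in the double mutant, 3 of them by more than 1, where 16.2% of all genes were. The other 2 were lower, *MYB5* (46.0 to 23.3 FPKM, -0.98) and *GL2* (-0.04). The 4 fruit wall markers had sums of 155 and 207 FPKM. Of these 4, *ALC* (35.4 to 104 FPKM), *FUL* (0.749 to 6.07) and *IND* (0.827 to 3.01) were higher in the double mutant and *SHP1* (118 to 94.2) was lower. The 3 that were higher were so by more than 1, again beside 16.2% of all genes. None of the markers was at 0 in both genotypes of a table. In seeds sampled whole, fewer endosperm cells and less RNA of a gene per cell cannot be told apart, and the part of the tissue makeup in the members' levels was not tested.

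Of the 6 other cytokinin oxidase genes, 4 reached 1 FPKM, and 2 of these were higher by more than 1 in the double mutant than in Col-0, where 16.2% of all genes were, with *CKX7* at 6.45 FPKM beside 0.895 (2.85) and *CKX1* at 1.49 beside 0.522 (1.51). *CKX5* (0.25) and *CKX6* (0.29) differed less, and *CKX4*, below 1 FPKM, was lower, at 0.0737 FPKM in the double mutant (-1.03). Their 6 levels summed to 10.5 FPKM in the wild type and 18.8 in the double mutant, far under the 255 and 32.1 of *CKX2*. Of 7 isopentenyltransferase genes, which make cytokinin, 3 reached 1 FPKM. *IPT5* was higher (0.275 to 2.90 FPKM, 3.40) and *IPT1* (1.56 to 0.252, -2.63) and *IPT8* (1.21 to 0.301) were lower. Of all genes, 16.2% were higher by more than 1 and 11.7% lower by more than 1. Below 1 FPKM, *IPT4* was lower (-1.55), *IPT7* (1.51) and *IPT3* were higher, and *IPT6* was listed at 0. Of 13 receptors and type-A response regulators, 10 could be read and 6 were higher by more than 1, namely *ARR16* (4.57), *ARR15* (2.53), *AHK2* (1.90), *ARR8* (1.53), *AHK3* (1.31) and *ARR5* (1.05), with none lower by more than 1, where 16.2% of all genes were higher by more than 1. In *pkr2-2* 2 of 9 were higher by more than 1 beside 5.75% of all genes, *ARR15* (2.44) and *ARR5* (1.03), and in *pkl-1* 3 of 10 beside 10.6%, *ARR16* (4.83), *ARR15* (1.91) and *AHK2* (1.55).

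Of 10 genes of the embryo sheath and of the signalling that checks the embryo cuticle, 2 were lower by more than 1 in the double mutant and 2 higher, where 11.7% and 16.2% of all genes were. *SCRM2*, a paralog of *ICE1*, was at 7.26 FPKM beside 18.8 in Col-0 (-1.37). AT1G50650, annotated as a Stig1 family protein, was listed at 0 in all 3 mutants. Its wild-type values were near the limit of 1 FPKM, at 0.947 (*pkr2-2* table), 1.04 (*pkl-1*) and 1.11 (double mutant), and its fragments were not estimated. *MPK3* (1.76) and *MKK5* (1.02), kinases of that signalling, were higher. Of 13 other seed size genes, none was lower by more than 1 in any mutant, where 3.63% (*pkr2-2*), 8.76% (*pkl-1*) and 11.7% (double mutant) of all genes were. In the double mutant 5 were higher by more than 1, where 16.2% of all genes were, with *CYP78A9* at 2.48, *CYP78A6* at 1.89, *ARF2* at 1.67, *ABI5* at 1.16 and *BB* at 1.14.

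**Figure D4:**
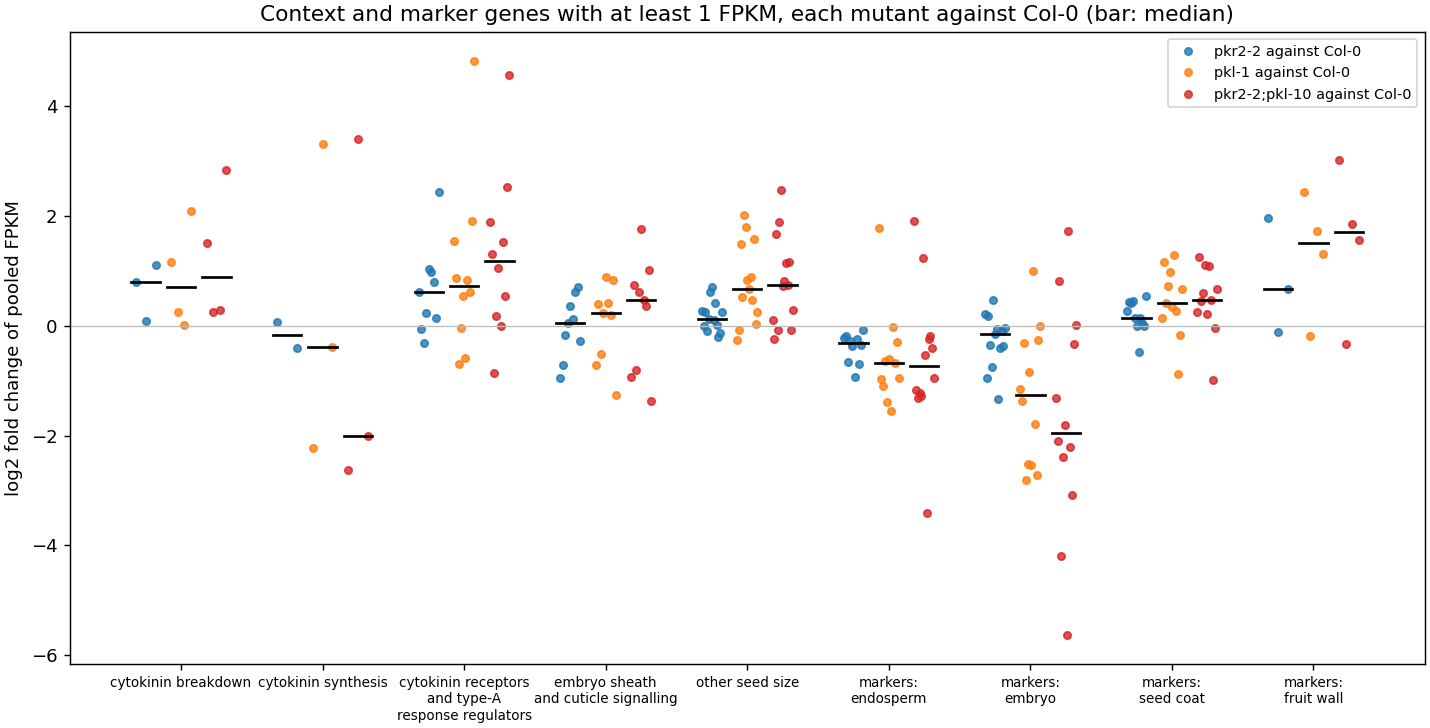
Log2 fold change of pooled FPKM against Col-0 (vertical axis) for each gene with at least 1 FPKM of the 5 context lists and 4 marker lists (horizontal axis), in *pkr2-2* (blue), *pkl-1* (orange) and the double mutant (red), with a black bar at the median; genes listed at 0 in a genotype are left out. The median of the endosperm markers is -0.31, -0.68 and -0.74 in these mutants, and that of the receptors and response regulators 0.62, 0.72 and 1.18.

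The genes whose 3 log2 fold changes against Col-0 lay nearest to those of the most reduced member of each branch above 1 FPKM were found among 16107 other genes that reached 1 FPKM in both genotypes of the 3 tables with Col-0. For *CKX2* they were *ARI16*, at a Euclidean distance of 0.159, AT2G21130 (0.194), AT1G11540 (0.202), AT5G07260 (0.248) and AT3G09990 (0.286). For *ALE1* they were *MKK7* (0.228), AT1G21670 (0.252), AT4G32380 (0.271), *ALD1* (0.305) and AT2G45220 (0.318). *ALE1* and *CKX2* lay 0.746 apart, which made *ALE1* the gene at place 77 from *CKX2* and *CKX2* the gene at place 32 from *ALE1*. *MINI3* and *ZHOUPI* were farther from *CKX2*, at 1.51 and 1.77.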

How the data were processed

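Seed mRNA of 4 genotypes with 2 replicates each was sequenced in paired ends. According to the study's methods the authors cleaned reads with Fastp, aligned these by TopHat (2.1.1) on TAIR10.1 and ran Cufflinks (2.2.1.3) with geometric normalization. The deposited tables, 1 per comparison, differ in scale. The deposited FPKM values are pooled over replicates by the authors. The tables also hold the authors' log2 fold changes, test statistics and p- and q-values, which were not used, and 0 value columns per sample were left out. Log2 fold changes were recomputed with no pseudocount. Fragments were estimated from FPKM steps in transcripts of at least 1000 bases, with floors of 3 counts. Counting steps and the call rule were tried on simulated data for the double mutant against Col-0: 200 of 200 changed genes among 21137 were called. The changed genes were drawn above 5 FPKM and moved by 3 on the log2 scale, with counting error only. Nearly complete calling was therefore built in, and the result does not bear on smaller changes, lower levels or variation between plants. Computation used matplotlib 3.10.9, scipy 1.17.1, numpy 2.4.6 and pandas 2.3.3 under Python 3.11.15. The members and lists were chosen with earlier results of these data known. Named genes are all members, *PKL* and *PKR2*, listed genes beyond a log2 fold change of 1 against Col-0 (up to 6 per list) and the 5 nearest profiles of the leading member per branch. Of the listed genes, 1 was dropped because its annotated product went against its listed name. It was the entry listed as *TWS1* among the embryo sheath and cuticle signalling genes, so that list does not cover it. Alternatives were a limit of 1, pseudocounts of 1 and 0.1 FPKM, recentring on nuclear genes, a minimum of 5 FPKM and no minimum.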

Additional observations from a re-analysis of the deposited data

How the results depend on the processing

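With a pseudocount of 1 FPKM the count of members past the limit of 2 (log2) in *pkl-1* against Col-0 went from 2 to 1, as *ALE1* came to -1.97. With a limit of 1 in either direction they numbered 4 in the double mutant against Col-0, 4 against *pkr2-2* and 1 against *pkl-1*. With no minimum FPKM they numbered 4 in *pkl-1* against Col-0, 4 in the double mutant against Col-0, 4 against *pkr2-2* and 1 against *pkl-1*, the additions being *IKU2* and, where listed at 0 in the reference, *SHB1*. The members past the limit of 1 were all lower, and their counts are those given above beside the shares of all genes lower by more than 1. For the pseudocount and for no minimum, no share of all genes stands beside the counts. Those counts are therefore not read as a result about the members. Of 35 single log2 fold changes, 12 left their counting interval with a pseudocount of 1, 2 with 0.1 and 0 after recentring. Recentring turned *IKU1* from 0.02 to -0.02 in the double mutant against *pkl-1*, and from 0.01 to -0.00 in *pkr2-2* against Col-0. Pooled values limit all results: variation between replicates is not known, and *IKU2* and *SHB1* rest on at most 34 and 4 fragments. No paired analysis was possible because the tables hold 1 pooled value per genotype, and for the same reason no replicate could be left out. For the loss of *PKR2* in 2 backgrounds, the alternatives were chosen after seeing the data.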
